A study of Homo sapiens with 6 samples.

Results

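The genes studied here make and modify long fatty acids: the carboxylase gene ACACA, the synthase gene FASN, the desaturase genes SCD, FADS1 and FADS2, and the elongase genes ELOVL1, ELOVL4, ELOVL5, ELOVL6 and ELOVL7. They were chosen by name, as all probe sets whose platform annotation names only one of these 10 genes. The rule found 19 of 54675 probe sets, which stand for 8 of the 19775 genes named. ELOVL1 and FADS1 had none, because 2 probe sets of ELOVL1 and 3 of FADS1 are each annotated with a microRNA gene as well; these 5 were not used. Averaged over all arrays, 12 of the 19 reached log2 4, the minimum used here, and each of the 8 genes kept at least 1 of them; the other 7 lay between 1.72 and 2.99 on every array. The set was drawn up with results of these arrays known: ELOVL7 was already among the genes with the smallest p of those lower with NRP-2 siRNA. Its values in comparisons that use the NRP-2 arrays are therefore a description, with no test.

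The samples were cells of the human prostate cancer line PC3, collected 72 h after transfection with scrambled siRNA, siRNA for VEGF-C or siRNA for NRP-2. VEGF-C is a growth factor and NRP-2 is neuropilin-2, one of its co-receptors. Total RNA from 2 samples of each of the 3 groups was put on 6 Affymetrix arrays, and all cells grew in the same medium with 10% serum. Each target was depleted with a single siRNA product, a pool, and the products came from different suppliers, so that target, sequences and supplier cannot be told apart. Whether the samples of a group were separate cultures is not in the labels. The p-values therefore rest on a spread between samples that may be technical only.

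Fatty acid synthesis starts in the cytosol, where ACACA turns acetyl-CoA into malonyl-CoA and FASN builds palmitate from it. The product is then lengthened in the endoplasmic reticulum by ELOVL enzymes, each of which catalyses the first, condensing step of an elongation cycle, and receives double bonds from desaturases. Many of these genes are targets of the transcription factors SREBP-1 and SREBP-2, and active lipid synthesis is a known feature of prostate cancer, in which ELOVL7 has been described as an elongase of saturated very long chains. In bulk RNA, fewer cells that express a gene and less RNA per cell cannot be told apart.

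Promoter sequence is shown for the 3 elongase genes on which the results turn: ELOVL7, for which the NRP-2 arrays stood apart, and ELOVL4 and ELOVL5, for which the arrays of the siRNA groups lay on opposite sides of the scrambled arrays. Each run is the 250 bases before the RefSeq start of the gene on GRCh38.p14, read 5′ to 3′ on the gene's strand, which is the minus strand for all 3. Capitals mark the letters CCAAT (the NF-Y box), CACGTG (an E-box) and GGGCGG (a GC box) on either strand.
ELOVL7, chr5:60844270-60844519: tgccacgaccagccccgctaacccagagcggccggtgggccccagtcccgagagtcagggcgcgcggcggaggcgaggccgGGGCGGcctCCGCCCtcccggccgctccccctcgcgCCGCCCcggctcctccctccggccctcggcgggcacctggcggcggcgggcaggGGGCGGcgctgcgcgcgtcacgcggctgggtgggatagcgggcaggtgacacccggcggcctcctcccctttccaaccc
ELOVL4, chr6:79947554-79947803: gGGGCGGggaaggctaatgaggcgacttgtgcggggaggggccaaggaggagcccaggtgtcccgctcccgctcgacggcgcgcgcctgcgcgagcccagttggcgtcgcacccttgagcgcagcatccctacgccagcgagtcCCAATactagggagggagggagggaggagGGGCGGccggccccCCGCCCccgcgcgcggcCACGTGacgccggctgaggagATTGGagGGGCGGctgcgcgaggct
ELOVL5, chr6:53348951-53349200: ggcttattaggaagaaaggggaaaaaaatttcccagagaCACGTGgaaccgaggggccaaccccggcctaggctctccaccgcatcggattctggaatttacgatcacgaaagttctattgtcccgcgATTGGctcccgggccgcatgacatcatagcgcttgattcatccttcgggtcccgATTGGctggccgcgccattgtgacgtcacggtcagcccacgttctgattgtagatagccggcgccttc
The ELOVL7 stretch held 4 GC boxes, no CCAAT and no E-box, with 80.8% G and C. That of ELOVL4 held 4 GC boxes, 2 CCAAT boxes and 1 E-box, and that of ELOVL5 held 2 CCAAT boxes, 1 E-box and no GC box, with 56% G and C. Of the members, 9 had an entry (FASN had none; FADS2 and ACACA had several starts), and 8 held the GC box, 5 CCAAT and 2, ELOVL4 and ELOVL5, the E-box. Over the 13513 promoters of genes tested here 63.3%, 33.3% and 8.21% did, and over all 35116 listed 42.6%, 32% and 6.34%. These shares are per promoter, while a member with several starts counted once if any of them held the motif. ELOVL1 and FADS1 are among the 9 but not among the genes tested. In the 3 stretches no 2 of these motifs overlapped, and a match of letters is a description, not a site.

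Over all 11131 genes tested, limma called 0 genes in each of the 3 comparisons at an adjusted p under 0.05, and so 0 of 8 members (background 0%). At an unadjusted p under 0.05, 14.8% of genes passed with VEGF-C against scrambled siRNA, 13.3% with NRP-2 against scrambled siRNA and 18.2% with NRP-2 against VEGF-C siRNA. The targets followed their labels: VEGFC stood at 11.81 and 11.80 on the scrambled arrays and at 8.46 and 7.27 with VEGF-C siRNA, and NRP2, close to the floor, at 4.77 and 4.92 against 3.41 and 2.81 with NRP-2 siRNA. With VEGF-C siRNA NRP2 stood at 5.51 and 6.01, so that NRP-2 against VEGF-C siRNA also compares arrays above and below the scrambled level of NRP2. All 8 markers of an epithelial prostate line were above log2 4 (KRT8, KRT18 and EPCAM among them), and the summed level of the list ran from 110.24 to 112.19 over the 6 arrays. Of markers of other cell types, 2 of 6 for fibroblasts, 2 of 5 for endothelium, 1 of 4 named for leukocytes, 1 of 5 for adipocytes and 2 of 5 named for luminal prostate were above log2 4. Some of these moved with the groups: TMPRSS2, a luminal gene, stood at 9.18 and 9.25 with scrambled, at 8.66 and 8.67 with VEGF-C and at 7.02 and 8.28 with NRP-2 siRNA, and COL1A1, a collagen gene, at 10.73 and 10.77, at 9.97 and 10.13 and at 9.56 and 10.26. The other gene of each of these lists above log2 4 did not share this pattern. KLK3, also luminal, stood at 6.29 and 6.32, at 6.87 and 6.70 and at 6.26 and 6.29 in the same order of groups. COL3A1, also a collagen gene, stood at 7.73 and 8.25, at 7.04 and 8.27 and at 7.94 and 8.75. COL1A2, DCN and KLK2 were near the floor, between 2.41 and 3.11 on every array. ACP3, also luminal and below log2 4 on every array, stood at 2.93 and 3.07, at 2.82 and 2.81 and at 3.95 and 3.71. PECAM1, an endothelial gene, stood at 9.39 and 10.83, at 9.17 and 9.35 and at 9.29 and 10.93. LYZ, a leukocyte gene, stood at 5.18 and 6.08, at 4.70 and 5.96 and at 4.83 and 7.41. Both PECAM1 and LYZ were higher on array 2 than on array 1 of each group. The summed level of the fibroblast list ran from 29.86 to 30.16, 28.08 to 29.68 and 28.56 to 30.24 in the same order of groups, and that of the luminal list from 23.06 to 23.27, 22.81 to 22.93 and 21.78 to 22.88. The mean of 31 G2 and mitosis genes differed between arrays of a group and between groups: it was 10.40 and 8.75 with scrambled siRNA, 11.27 and 10.51 with VEGF-C siRNA and 11.14 and 10.08 with NRP-2 siRNA. All 31 of these genes were above 0 with either siRNA against scrambled siRNA (medians +1.27 and +1.02), while 50.7% and 48.2% of all genes were below 0. Both arrays lay above both scrambled arrays for 23 with VEGF-C siRNA (26.8% of all genes) and for 2 with NRP-2 siRNA (25.3%). The part of these markers in the members' values was not tested, apart from fits with the G2 and mitosis mean added. The 3′ minus 5′ difference of the beta-actin control probe sets, which grows as RNA degrades, was 3.11 on scrambled array 1 and 2.05 to 2.76 on the other 5. That of the GAPDH control probe sets was -0.0009 on scrambled array 1 and -0.09 to -0.03 on the other 5.

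ELOVL7 was lower on both NRP-2 arrays than on any other array. Its single probe set stood at log2 8.58 and 8.80 with scrambled siRNA, at 8.48 and 8.64 with VEGF-C siRNA and at 7.17 and 7.36 with NRP-2 siRNA. The scrambled and VEGF-C arrays overlapped, and the NRP-2 arrays lay below both. The mean was 7.26 ± 0.14 (SD, n = 2) with NRP-2 siRNA against 8.69 ± 0.15 with scrambled siRNA, a log2 difference of -1.43 or 2.69-fold, and against 8.56 ± 0.11 with VEGF-C siRNA, a difference of -1.29 or 2.45-fold. With any 1 array left out the difference from scrambled siRNA ran from -1.54 to -1.32, and in a fit with the G2 and mitosis mean added it was -1.27. VEGF-C against scrambled siRNA gave -0.14 (SE 0.15, 95% interval -0.51 to 0.24, limma's adjusted p = 0.697); it was -0.03 without scrambled array 2 and +0.07 with the G2 and mitosis mean in the fit. The order of the group means was scrambled, VEGF-C and NRP-2 siRNA, in which scrambled and VEGF-C siRNA did not differ beyond their spread.

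**Figure D1:**
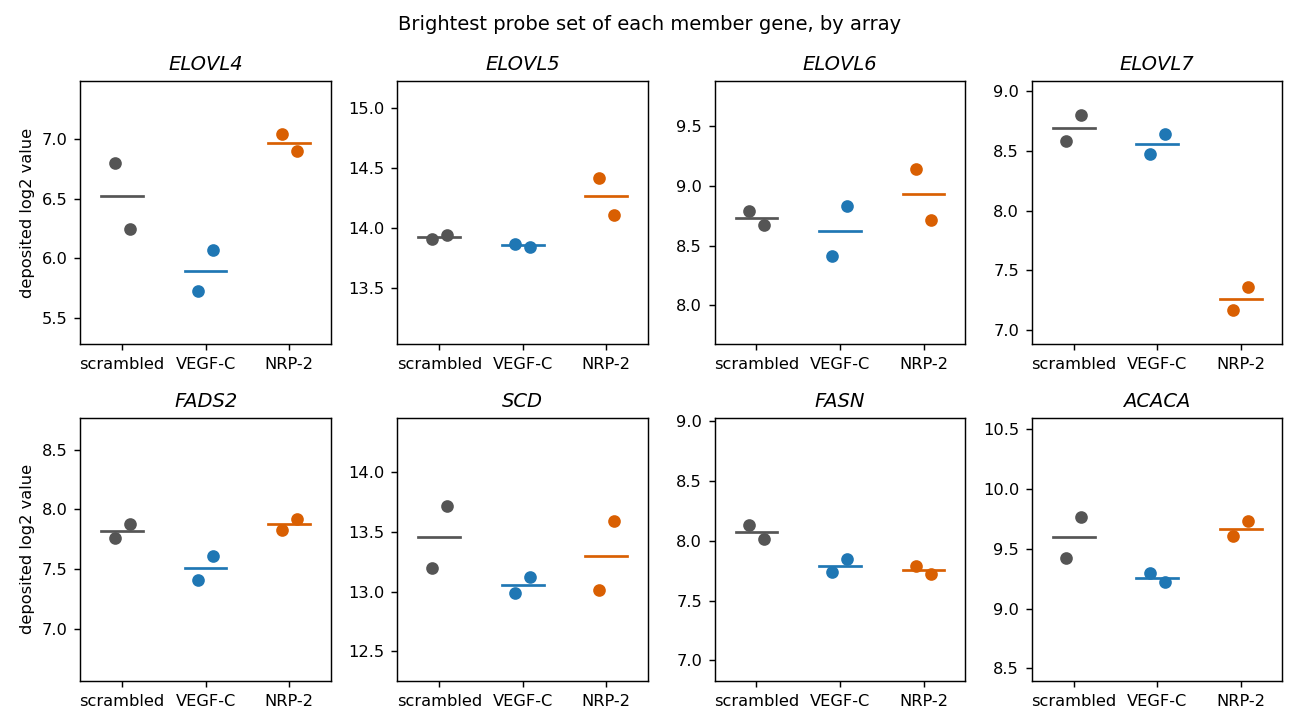
Deposited log2 values (y axes, all panels with the same span) of the probe set that stands for each of the 8 measured genes, by siRNA group (x axis). Points are arrays (n = 2 a group) and lines are group means. The ELOVL7 panel shows the NRP-2 arrays at 7.17 and 7.36, below the other 4 arrays, and in the ELOVL4 panel the VEGF-C arrays lie below and the NRP-2 arrays above the scrambled ones.

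The genes whose values over the 6 arrays were most like those of ELOVL7, by Pearson correlation among the other 11130 genes, were MAN1B1-DT (r = 0.99), COPS4, TAF10, CEBPA-DT and TMEM139, in that order. COPS4, a subunit of the COP9 signalosome, stood at 11.74 and 11.76 with scrambled siRNA, at 11.51 and 11.81 with VEGF-C siRNA and at 10.16 and 10.41 with NRP-2 siRNA, a difference of -1.47 from scrambled siRNA. The fifth, TMEM139, had r = 0.99 as well, and MAN1B1-DT and TAF10 had NRP-2 against scrambled differences of -0.26 and -0.29, so that a like pattern did not mean a like size. These are picks from many genes over 6 arrays and carry no test.

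The other elongase genes did not share this pattern. ELOVL4, which makes the longest chains known in skin and retina, stood at 6.80 and 6.25 with scrambled siRNA, at 5.73 and 6.07 with VEGF-C siRNA and at 7.04 and 6.90 with NRP-2 siRNA. No 2 groups overlapped, and the order was NRP-2, scrambled and VEGF-C siRNA. NRP-2 against VEGF-C siRNA gave +1.07 (SE 0.23, 2.10-fold, 95% interval 0.50 to 1.64), with an unadjusted p of 0.00438 and limma's adjusted p = 0.131. Against scrambled siRNA the differences were -0.63 with VEGF-C siRNA (SE 0.23, adjusted p = 0.319) and +0.44 with NRP-2 siRNA (SE 0.23, adjusted p = 0.45). With any 1 array left out the first ran from -0.90 to -0.35 and the second from 0.17 to 0.72, both ends set by which scrambled array remained.

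ELOVL5 lengthens polyunsaturated chains. Of its 4 probe sets, 3 were below log2 4, and the remaining one stood at 13.91 and 13.94 with scrambled siRNA, at 13.87 and 13.84 with VEGF-C siRNA and at 14.41 and 14.11 with NRP-2 siRNA. The VEGF-C arrays lay just below and the NRP-2 arrays above the scrambled ones. The difference was -0.07 with VEGF-C siRNA (SE 0.14, adjusted p = 0.848), +0.34 with NRP-2 siRNA (SE 0.14, adjusted p = 0.396) and +0.41 between the siRNAs (95% interval 0.05 to 0.77, limma's adjusted p = 0.239). Without NRP-2 array 1 the last 2 were +0.19 and +0.26. ELOVL4 and ELOVL5 were the 2 of 8 members whose siRNA groups lay on opposite sides of the scrambled arrays, a pattern that 7.62% of all genes tested had; 3.79% had it with the VEGF-C arrays below.

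ELOVL6 lengthens palmitate to stearate and had 3 probe sets past the filter, which did not give one answer. The brightest stood at 8.79 and 8.67 with scrambled siRNA, at 8.41 and 8.83 with VEGF-C siRNA and at 9.14 and 8.71 with NRP-2 siRNA, so that all groups overlapped. Against scrambled siRNA its difference was -0.11 for VEGF-C siRNA (SE 0.22, adjusted p = 0.842; +0.10 without VEGF-C array 1, -0.38 as the mean of its probe sets) and +0.20 for NRP-2 siRNA (SE 0.22, limma's adjusted p = 0.698; -0.02 without NRP-2 array 1). The probe set 210868_s_at stood at 7.34 and 7.19, at 6.44 and 6.81 and at 7.28 and 7.29 in the same order of groups, and 227491_at at 5.06 and 5.06, at 4.59 and 4.76 and at 5.29 and 5.38. On both, the VEGF-C arrays lay below all others. Tested singly among 19946 probe sets, they gave -0.65 (SE 0.17, limma's adjusted p = 0.262) and -0.38 (SE 0.13, adjusted p = 0.319) with VEGF-C against scrambled siRNA, and +0.66 (adjusted p = 0.141) and +0.65 (adjusted p = 0.109) with NRP-2 against VEGF-C siRNA.

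**Figure D2:**
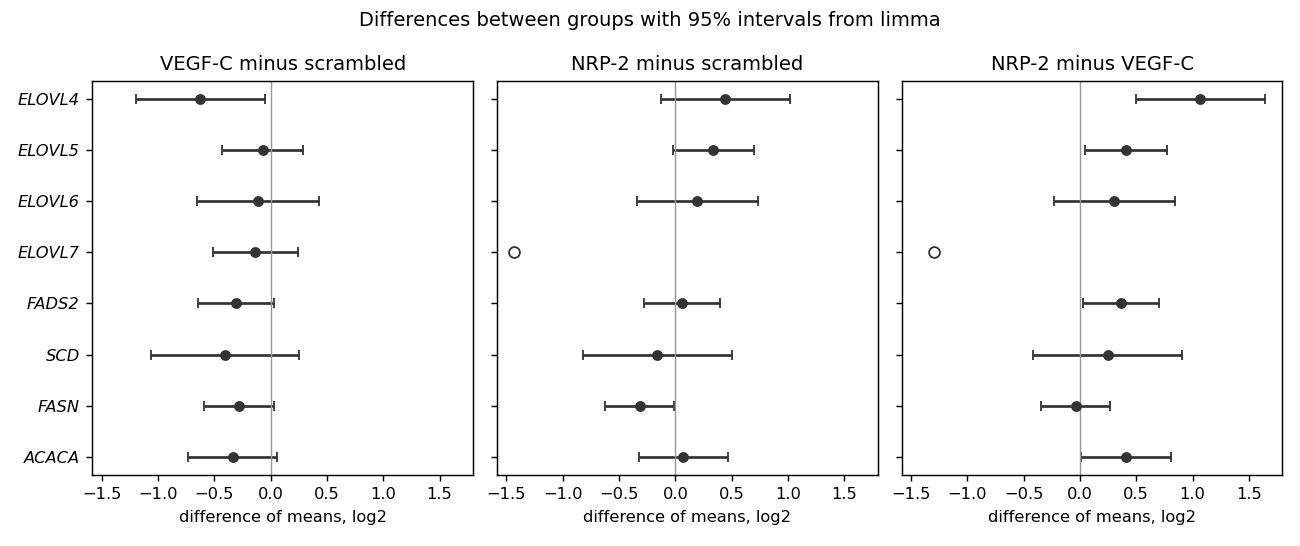
Differences of group means in log2 (x axes) for the 8 genes (y axis) in the 3 comparisons, with 95% intervals from limma. ELOVL7 has open points and no interval in the comparisons that use the NRP-2 arrays, since it was chosen for them. All points lie below 0 in VEGF-C minus scrambled, where ELOVL4 is farthest from 0 at -0.63.

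The desaturase genes differed from each other. FADS2, which puts the first new double bond into dietary polyunsaturated fatty acids, stood at 7.76 and 7.88 with scrambled siRNA, at 7.41 and 7.61 with VEGF-C siRNA and at 7.83 and 7.92 with NRP-2 siRNA. The VEGF-C arrays lay below the other 4, and scrambled and NRP-2 arrays overlapped. The difference was -0.31 with VEGF-C siRNA (SE 0.13, adjusted p = 0.369; -0.18 with the G2 and mitosis mean in the fit), +0.06 with NRP-2 siRNA (SE 0.13, adjusted p = 0.873; -0.0019 without scrambled array 1) and +0.37 between the siRNAs (95% interval 0.03 to 0.70, limma's adjusted p = 0.248). Its second probe set was below log2 4.

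SCD, which makes oleate and palmitoleate from saturated chains, had 2 probe sets past the filter of 4, and these disagreed on NRP-2 siRNA. The brighter stood at 13.20 and 13.72 with scrambled siRNA, at 12.99 and 13.12 with VEGF-C siRNA and at 13.01 and 13.59 with NRP-2 siRNA. The other, 200831_s_at, stood at 9.80 and 10.08, at 9.57 and 9.57 and at 8.88 and 9.27. On both probe sets the VEGF-C arrays lay below the scrambled ones, and on the dimmer alone the NRP-2 arrays lay below all others. VEGF-C against scrambled siRNA gave -0.41 on the brighter (SE 0.26, limma's adjusted p = 0.502) and -0.37 on the dimmer. With 1 array left out the first ran from -0.66 without scrambled array 1 to -0.15 without scrambled array 2, where the second was -0.23. NRP-2 against scrambled siRNA gave -0.16 on the brighter (SE 0.26, adjusted p = 0.807), and +0.10 without scrambled array 2 or +0.13 without NRP-2 array 1. As the mean of the 2 SCD probe sets past the filter it was -0.51. On the dimmer it gave -0.87 (SE 0.19, 1.83-fold, limma's adjusted p = 0.206 among probe sets tested singly).

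For the brighter SCD probe set, the order over the 6 arrays was the exact reverse of that of the G2 and mitosis mean. This pattern was noticed after the values were seen. Of the 8 members, each by its brightest probe set, SCD alone showed it, and 0.53% of all genes tested did. The array with the highest SCD value, scrambled array 2 at 13.72, had the lowest G2 and mitosis mean, 8.75, and the array with the lowest SCD value, VEGF-C array 1 at 12.99, had the highest, 11.27. The dimmer SCD probe set did not have the reverse order. On NRP-2 array 2 the G2 and mitosis mean was lower than on scrambled array 1 (10.08 and 10.40), and so was this probe set (9.27 and 9.80). In a fit with the G2 and mitosis mean added the brighter probe set was at +0.06 for VEGF-C siRNA and +0.21 for NRP-2 siRNA against scrambled siRNA, both above 0. The dimmer, 200831_s_at, stayed below 0 in both comparisons over the alternatives run, that fit included. It ran from -0.51 to -0.11 with VEGF-C siRNA and from -1.07 to -0.66 with NRP-2 siRNA.

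**Figure D3:**
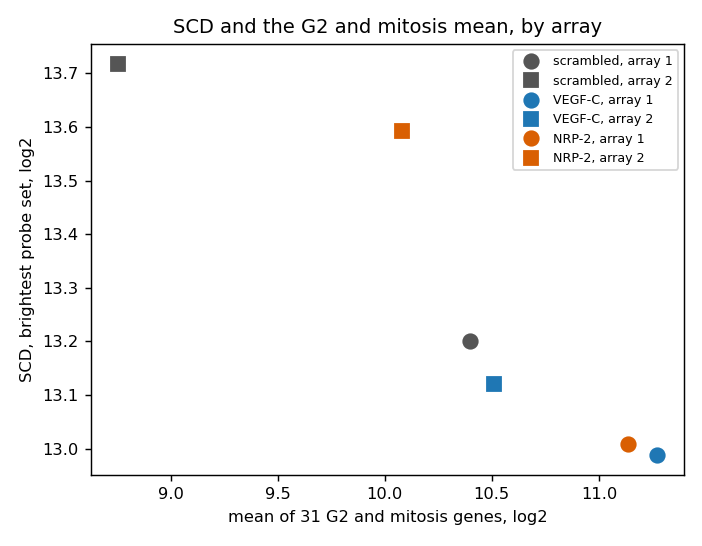
The brighter SCD probe set (y axis, log2) against the mean of 31 G2 and mitosis genes (x axis, log2) on each of the 6 arrays. Colours are siRNA groups and shapes are replicate numbers. The points fall from scrambled array 2 (8.75 and 13.72) to VEGF-C array 1 (11.27 and 12.99).

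FASN and ACACA, the enzymes that start and build the chain, also differed from each other. FASN stood at 8.13 and 8.01 with scrambled siRNA, at 7.74 and 7.85 with VEGF-C siRNA and at 7.79 and 7.72 with NRP-2 siRNA. It was the one member with both siRNA groups below both scrambled arrays, as 11.2% of all genes tested were. The differences were -0.28 (SE 0.12, limma's adjusted p = 0.369) and -0.32 (SE 0.12, adjusted p = 0.366), each against the same 2 scrambled arrays, and -0.04 between the siRNAs (95% interval -0.34 to 0.27, adjusted p = 0.91). Without any 1 array both stayed below 0, from -0.34 to -0.22 and from -0.38 to -0.26. Its second probe set was below log2 4.

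ACACA stood at 9.43 and 9.77 with scrambled siRNA, at 9.30 and 9.22 with VEGF-C siRNA and at 9.60 and 9.73 with NRP-2 siRNA. The VEGF-C arrays were the lowest of the 6. The difference was -0.34 with VEGF-C siRNA (SE 0.16, adjusted p = 0.389; -0.51 without scrambled array 1, -0.17 without scrambled array 2, -0.08 as the mean of its probe sets), +0.07 with NRP-2 siRNA (SE 0.16, adjusted p = 0.868; -0.10 without scrambled array 1) and +0.41 between the siRNAs (95% interval 0.01 to 0.80, limma's adjusted p = 0.265). A second probe set, 214358_at, close to the filter at 4.53 and 4.15, at 4.52 and 4.54 and at 5.14 and 4.52, differed from scrambled siRNA by +0.19 for VEGF-C siRNA and +0.49 for NRP-2 siRNA, with overlapping groups; over the alternatives run the first lay between -0.19 and +0.38 and the second between +0.18 and +0.79.

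**Figure D4:**
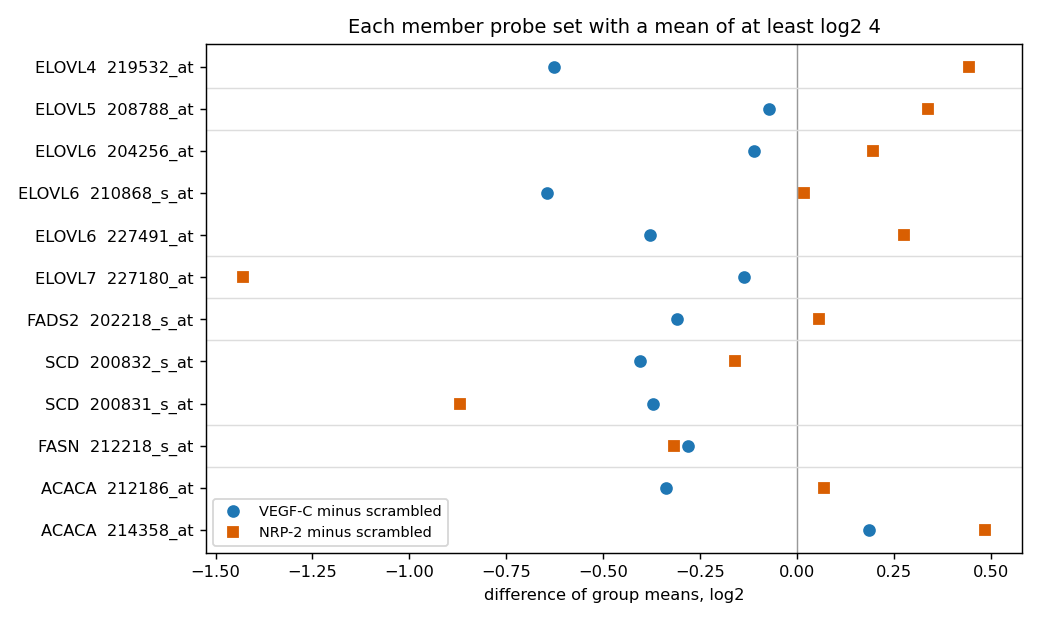
Differences of group means in log2 (x axis) for each of the 12 member probe sets past the filter (y axis, gene and probe set), with VEGF-C minus scrambled siRNA as circles and NRP-2 minus scrambled siRNA as squares. The SCD probe sets lie at -0.16 and -0.87 with NRP-2 siRNA, and those of ELOVL6 between -0.65 and -0.11 with VEGF-C siRNA.

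Over the set, all 8 members were below 0 with VEGF-C against scrambled siRNA, where 50.7% of all genes were, with a median of -0.30 beside -0.004 over all genes. The median was -0.17 without scrambled array 2 and also in a fit with the G2 and mitosis mean added. The count was 7 without VEGF-C array 1 and 6 in that fit. In 6 of 8 both VEGF-C arrays lay below both scrambled arrays, against 26.6% of all genes, and in 0 above (26.8%; 53.4% either way). At an unadjusted p under 0.05, 1 member, ELOVL4, was lower, against 7.8% of all genes, and 0 were higher (6.95%). The count was 0 without VEGF-C array 1 or either NRP-2 array and 2 without VEGF-C array 2, and without scrambled array 1 the member was ACACA instead. Genes measured on the same arrays are not independent, and these counts carry no test.

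With NRP-2 against scrambled siRNA the members spread to both sides. ELOVL7 was chosen for this comparison, so nothing is read from its place in the counts. The median was +0.06 (+0.07 over the other 7) beside +0.01 over all genes, with 3 members below 0 (48.2% of all genes) and 5 above. The median was -0.05 and 5 were below 0 without scrambled array 1, and 2 were below 0 without scrambled array 2. ELOVL4 and ELOVL5 had both arrays above both scrambled arrays (25.3% of all genes), and FASN, besides ELOVL7, had both below (24.4%; 49.7% either way). Of the 7 members other than ELOVL7, 1, FASN, was lower at an unadjusted p under 0.05, against 6.85% of all genes, and 0 were higher (6.43%). FASN no longer passed when any 1 of the 6 arrays was left out; ELOVL4 passed without scrambled array 1 and ELOVL5 without NRP-2 array 2.

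With NRP-2 against VEGF-C siRNA, 6 of 8 members were above 0 and 2 below (47.3% of all genes), with a median of +0.34 (+0.37 over the 7 other than ELOVL7) beside +0.02 over all genes. Without VEGF-C array 1 the median was +0.22. ELOVL4, ELOVL5, FADS2 and ACACA had both NRP-2 arrays above both VEGF-C arrays (24.1% of all genes) and an unadjusted p under 0.05 (9.54% of all genes). Of these 7 members 0 lay the other way by either measure (22.4% and 8.66% of all genes; 46.5% did not overlap in either direction). Leaving out arrays lowered the count of 4 to 1, ELOVL4, without VEGF-C array 1 or NRP-2 array 1, and to 2 without any of the other 4 arrays.

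The other genes of the pathway were taken from lists written from general knowledge, with earlier results of these arrays known. The 9 lists besides the members held 104 measured genes, and limma called 0 of them over all genes in each comparison. The counts by list below are at an unadjusted p under 0.05, which 7.8% of all genes passed as lower and 6.95% as higher with VEGF-C siRNA, and 6.85% and 6.43% with NRP-2 siRNA. Among relatives of the members, ELOVL2, an elongase of long polyunsaturated chains, stood at 5.76 and 5.67 with scrambled siRNA, at 6.23 and 6.41 with VEGF-C siRNA and at 7.45 and 6.66 with NRP-2 siRNA. No 2 of its groups overlapped, and NRP-2 against scrambled siRNA gave +1.34 (SE 0.27, 2.52-fold, limma's adjusted p = 0.218). The desaturase gene SCD5 was at +0.77 with NRP-2 against scrambled siRNA (SE 0.26, adjusted p = 0.32) and at +1.01 against VEGF-C siRNA (adjusted p = 0.158). Without NRP-2 array 1, where it stood at 8.22 against 7.50 on NRP-2 array 2, these were +0.41 and +0.66. ACACB, the relative of ACACA, was at -0.65 with VEGF-C against scrambled siRNA (SE 0.32, adjusted p = 0.403), with 5.87 and 4.96 against 6.20 and 5.94. With NRP-2 against scrambled siRNA it was at -0.05 (adjusted p = 0.96).

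Of 14 regulators of lipid synthesis, 11 were below 0 with VEGF-C siRNA, as 50.7% of all genes were, with a median of -0.24 (-0.13 without VEGF-C array 2), and 2 were lower and 0 higher at an unadjusted p under 0.05 (7.8% and 6.95% of all genes). These were the AMP kinase subunit gene PRKAA2 at -0.62 (SE 0.14, limma's adjusted p = 0.233; -0.39 as the mean of its probe sets) and the fatty acid receptor gene PPARA at -0.75 (SE 0.24, adjusted p = 0.284; -0.45 without VEGF-C array 2). With NRP-2 siRNA 1 was higher, MLX, the partner of glucose-sensing factors, at +0.57 (SE 0.15, adjusted p = 0.259), and the median was -0.09 (0.04 without NRP-2 array 1). Of 8 genes that supply acetyl-CoA, citrate and NADPH, 1 was higher with NRP-2 siRNA, IDH1 at +0.71 (SE 0.15, adjusted p = 0.229). None passed with VEGF-C siRNA, where 7 of the 8 were above 0 (50.7% of all genes were below) and the median was +0.13. Both VEGF-C arrays lay above both scrambled arrays for 5 (26.8% of all genes) and below for 1 (26.6%). ACLY, which makes cytosolic acetyl-CoA, was at +0.50 with NRP-2 against VEGF-C siRNA (adjusted p = 0.197). ME1 went the other way, at -0.39 (adjusted p = 0.285), and at -0.30 with NRP-2 against scrambled siRNA (adjusted p = 0.458).

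Among 11 partners of the elongation and desaturation steps, which pass on electrons or finish the cycle, 2 were higher and 1 lower with VEGF-C siRNA at an unadjusted p under 0.05 (median +0.07, or +0.17 without VEGF-C array 1), and 2 were higher with NRP-2 siRNA (median +0.19, or -0.02 without NRP-2 array 1). The cytochrome b5 reductase gene CYB5R4 was at +1.38 with VEGF-C siRNA (SE 0.34, limma's adjusted p = 0.24) and +0.90 with NRP-2 siRNA (adjusted p = 0.363; +0.55 without NRP-2 array 1), CYB5R2 at +0.49 with VEGF-C siRNA (adjusted p = 0.233), and CYB5B, a cytochrome b5, at +0.63 with NRP-2 siRNA (adjusted p = 0.275). Of 4 ceramide synthases, which use the long chains, 1 was lower with VEGF-C siRNA. This was CERS6 at -0.53 (SE 0.13, adjusted p = 0.241), or -0.33 as the mean of its probe sets. CERS4 was at +0.65 with NRP-2 against VEGF-C siRNA (adjusted p = 0.187). CERS5 was at +0.25 with VEGF-C siRNA (adjusted p = 0.452) and +0.27 with NRP-2 siRNA (adjusted p = 0.454), each against scrambled siRNA.

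Of 9 genes that activate or bind acyl chains, 2 were higher with NRP-2 siRNA and none passed with VEGF-C siRNA. The 2 were the acyl-CoA synthetase gene ACSL1 at +0.59 (SE 0.15, limma's adjusted p = 0.249) and the acyl-CoA binding protein gene DBI at +0.42 (adjusted p = 0.332). SLC27A1 was at +0.73 with NRP-2 against VEGF-C siRNA (adjusted p = 0.184). Of 17 genes of glycerolipid synthesis, 1 was lower with VEGF-C siRNA, the acyltransferase gene GPAM at -0.97 (SE 0.22, adjusted p = 0.233); with NRP-2 siRNA 2 were higher and 1 lower, with GPAT3 at +0.78 (SE 0.13, adjusted p = 0.213) and LPIN1, a phosphatidate phosphatase, at +0.51 (adjusted p = 0.268). Of 21 genes of fatty acid oxidation, 7 were lower and 0 higher with VEGF-C siRNA (7.8% and 6.95% of all genes; median -0.21). With NRP-2 siRNA 2 were lower and 3 higher (6.85% and 6.43% of all genes; median +0.01). ACOXL, an acyl-CoA oxidase relative, was lower with both, at -0.76 (SE 0.17, adjusted p = 0.233) and -1.53. EHHADH, a peroxisomal enzyme, was lower with both as well, at -0.50 (adjusted p = 0.272) and -0.70 (adjusted p = 0.231). ECI2, an enoyl-CoA isomerase, was at -0.39 and +0.40. That ACOXL was low with NRP-2 siRNA was already known from these arrays when the list was written. Its value there is therefore given with no test, and its count there is no separate support.

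Genes of sterol synthesis and uptake share SREBP control with many of the members, and its part in these values was not tested. Of 16 such genes, 12 had both NRP-2 arrays above both scrambled arrays and 8 were higher at an unadjusted p under 0.05. The median of the list was +0.38. Over all genes these shares were 25.3% and 6.43%, and the list was not tested against other genes. LSS was at +0.52 (SE 0.14, limma's adjusted p = 0.277) and MSMO1 at +0.67 (SE 0.22, adjusted p = 0.315). TM7SF2, a sterol reductase, went the other way at -1.20 (SE 0.20, adjusted p = 0.213). With VEGF-C siRNA the median of this list was -0.16 (-0.29 without scrambled array 1, -0.04 without scrambled array 2), and 1 gene was lower, TM7SF2 at -0.57 (adjusted p = 0.309; -0.37 with the G2 and mitosis mean in the fit).

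**Figure D5:**
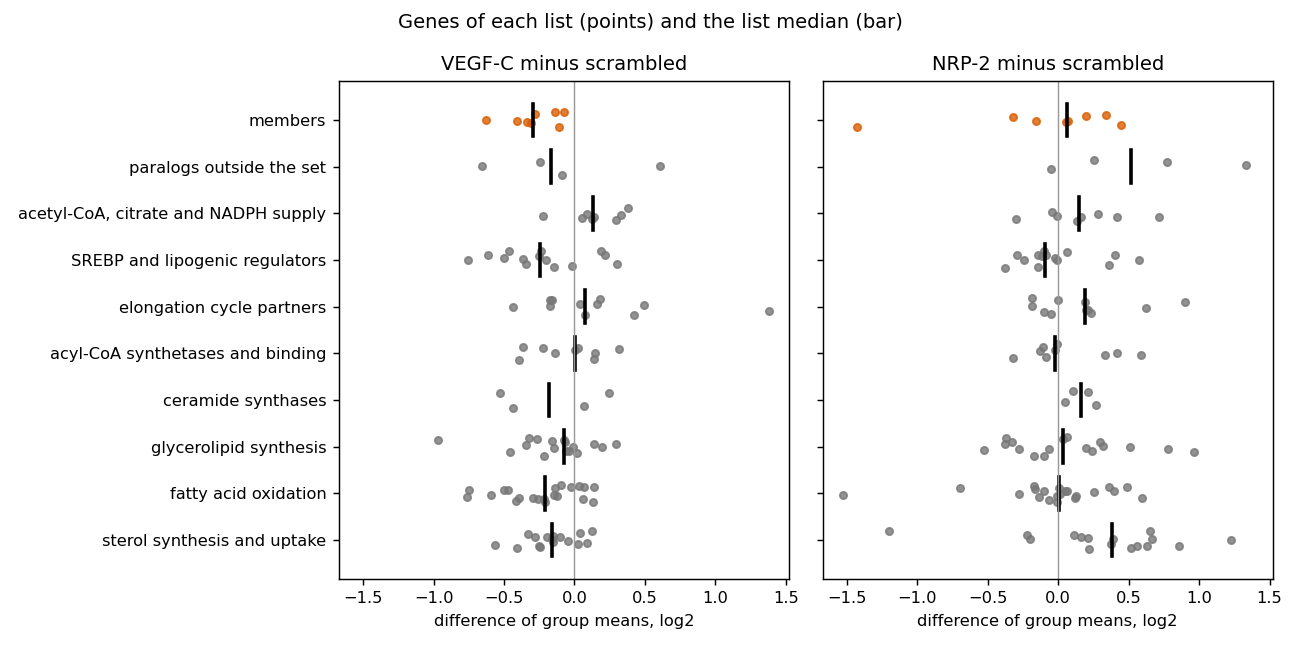
Log2 differences of group means (x axes) for each measured gene (points) of the members and of 9 other lists (y axis), with the list medians as bars; heights within a row are jittered. The members lie between -0.63 and -0.07 with VEGF-C siRNA (median -0.30) and between -1.43 and +0.44 with NRP-2 siRNA (median +0.06).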

How the data were processed

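The deposited log2 values per probe set come from the authors; the submitters' processing notes name GCRMA and Partek without version, setting or role. GCRMA corrects background by probe sequence, normalizes between arrays and compresses values near the floor. The array medians lay between 3.00 and 3.07. Detection calls were not used. Precision is limited by having 2 arrays a group. Control probe sets (62) and those with several genes (1801) or none (11721) were left out. A gene was represented by its brightest single-gene probe set, if that averaged log2 4 or more. All 6 arrays entered 1 fit in limma 3.58.1 (R 4.3.3, with 3 residual and 2.46 prior degrees of freedom). Tests were two-sided, with Benjamini-Hochberg adjustment over 11131 genes. The procedure was tested on simulated data with independent noise for each gene. Recovery was checked there only for changes larger than any member showed. An exact permutation of 2 against 2 arrays cannot go below 0.333. Named pathway genes are the 3 of each list with the smallest p over the comparisons. The members and lists were chosen with earlier results of these data known. Alternatives changed the filter, probe set, scaling, spread, samples, a replicate block, a covariate and each array. Where a mean of the probe sets of a gene is given, it took only those past the filter.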

Additional observations from a re-analysis of the deposited data

Results flagged for a closer look

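For 2 members the arrays of one siRNA group all lay below and those of the other all above the scrambled arrays. For ELOVL4 the difference between NRP-2 and VEGF-C siRNA was +1.07, and for ELOVL5 it was +0.41. The difference itself did not pass, with limma's adjusted p = 0.131 and 0.239 over all genes.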

How the results depend on the processing

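Members called over all genes numbered 0 in each comparison under all alternatives run, including each array left out. Of 360 recomputed changes of members, 347 kept their direction and, where tested, their side of the threshold. Another 12 turned sign, none of them past the threshold in either form. The last 1, of ELOVL7 with NRP-2 siRNA and no test, went to -1.27 under the covariate. Many of the 360 could not turn, since some alternatives keep the difference of means. These were a changed filter, spread estimate or block, probe sets tested singly, and arrays outside the comparison left out. Of the 347, 47 moved in size by over 1.5 times. The G2 and mitosis covariate turned ELOVL7 (0.0675) and the brighter SCD probe set (0.063) with VEGF-C siRNA, and that SCD probe set (0.21) with NRP-2 siRNA. The mean of the probe sets past the filter turned SCD between the siRNAs (-0.13). Leaving out VEGF-C array 1 turned ELOVL6 with VEGF-C siRNA (-0.3214 to 0.1007 over the left-out arrays). With NRP-2 siRNA leaving out scrambled array 1 turned FADS2 (-0.0019 to 0.117) and ACACA (-0.1017 to 0.2418), NRP-2 array 1 turned ELOVL6 (-0.0179 to 0.4096), and NRP-2 array 1 or scrambled array 2 turned SCD (-0.4503 to 0.1324). Between the siRNAs VEGF-C array 2 turned FASN (-0.0893 to 0.018) and NRP-2 array 2 turned SCD (-0.0453 to 0.5374). The cause was not tested. In the fit that took the replicate number for a block, members called were 0; the block cannot move a difference of means in this balanced design. Here same-numbered deviations correlated at 0.58 between scrambled and NRP-2 arrays, 0.11 between scrambled and VEGF-C arrays and 0.12 between the siRNAs, and the labels give no shared culture, so the block stands only here. At an unadjusted p under 0.05, member genes numbered 0 to 2 with VEGF-C siRNA and, without ELOVL7, 0 to 2 with NRP-2 siRNA and 1 to 5 between the siRNAs, beside 1, 1 and 4; under the block they numbered 1, 0 and 4.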
